A study of Mus musculus with 6 samples.

Results

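Lysyl oxidases and lysyl hydroxylases are enzymes of the pathway that leads to collagen cross-links. Their transcripts were read in the proximal hindlimb bud of mouse embryos that lacked Lmx1b. The set was defined by gene name: Lox and its paralogues Loxl1, Loxl2, Loxl3 and Loxl4, and the lysyl hydroxylase genes Plod1, Plod2 and Plod3. Every probe set whose platform annotation gave exactly 1 symbol, equal to one of these, was taken. This gave 13 of 45037 tested probe sets, for 7 of the 8 genes: 8 probe sets of lysyl oxidases and 5 of lysyl hydroxylases. Lox had 3 probe sets, Loxl1, Loxl4, Plod1 and Plod2 had 2 each, and Loxl3 and Plod3 had 1 each. The 2 probe sets annotated to Loxl2 also carry another symbol, so Loxl2 was not analysed here. Lox lies on chromosome 18, Loxl1 and Plod2 on chromosome 9, Loxl3 on chromosome 6, Loxl4 on chromosome 19, Plod1 on chromosome 4 and Plod3 on chromosome 5.

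The study asked which genes LMX1B, the LIM homeodomain factor of dorsal limb mesenchyme, controls in the hindlimb bud. The samples were 3 pools of Lmx1b -/- hindlimb tissue and 3 wild-type pools, all from 129Sv embryos at E11.5, in days of gestation, with 1 array per pool. Each pool held both hindlimbs of 3 embryos, 6 buds in all, cut to about 500 µm of proximal tissue. The labels name no tissue-restricted deletion, and the pools hold whole tissue in which no cell type was sorted. The groups are called Lmx1b-null and wild-type below, and the arrays limited the precision to 3 values a group.

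Collagen is modified in 2 steps by these families. Inside the endoplasmic reticulum, the lysyl hydroxylases encoded by Plod1, Plod2 and Plod3 add hydroxyl groups to lysine residues of the collagen chain. LH3, the Plod3 product, also attaches glucose to hydroxylysine that already carries galactose. Outside the cell, the copper-dependent lysyl oxidases turn lysine and hydroxylysine side chains into aldehydes, which then react into the cross-links that make collagen and elastin fibres insoluble. LOX itself is secreted as a proenzyme and cut by BMP1-type proteinases. In the limb these matrix enzymes are known from tendon, cartilage, bone and the walls of vessels, and Lox and several collagen hydroxylase genes are known targets of the hypoxia-inducible factors.

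All levels are log2 RMA values as deposited, and each change is the null mean minus the wild-type mean. The array medians lay between 4.96 and 4.99, and correlations between arrays ran from 0.993 to 0.997 over all probe sets. Lmx1b read 4.62, 4.23 and 4.57 in null pools 1 to 3, against 8.02, 7.58 and 8.17 in wild-type pools 1 to 3, a change of -3.45 (limma adjusted p = 0.000544). A second, dim Lmx1b probe set averaged 3.92 in null pools and 3.93 in wild-type pools. The hindlimb genes Tbx4 and Pitx1 were bright in all 6 pools, at 10.15 to 10.66 for Tbx4 and 10.05 to 10.44 for Pitx1, while the forelimb gene Tbx5 lay between 3.92 and 4.49. The pools differed in Xist, the female-specific transcript of X inactivation, at 9.66, 9.16 and 10.79 in null pools and 4.68, 9.88 and 4.72 in wild-type pools. Wild-type pool 1 gave the lowest value of the 6 pools for 27.1% of 18193 genes, more than any other pool, and wild-type pool 3 stood apart in hypoxia genes, as given with the lysyl hydroxylases.

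In all, 0 of the 13 probe sets passed a limma adjusted p of 0.05 over all tested probe sets, where the background was 0.0844% of 45037, with 0.0622% lower and 0.0222% higher in null pools. By unadjusted p under 0.05, 4 of the 13 were called, 2 lower and 2 higher, against a background of 9.41%, with 4.2% lower and 5.22% higher. The 4 were the brighter Lox pair, both lower, and the Loxl1 pair, both higher. By the brightest probe set of each gene, 1 of 4 lysyl oxidases was lower, 1 was higher and no lysyl hydroxylase was called. Over all 18193 genes, 3.58% were lower and 5.34% higher by that count. The values of the groups did not overlap in 4 of the 13, 2 lower and 2 higher, against 14.4% of all probe sets, with 5.78% lower and 8.62% higher. Those were 1 of Lox, 1 of Plod2 and both of Loxl1.

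**Figure D1:**
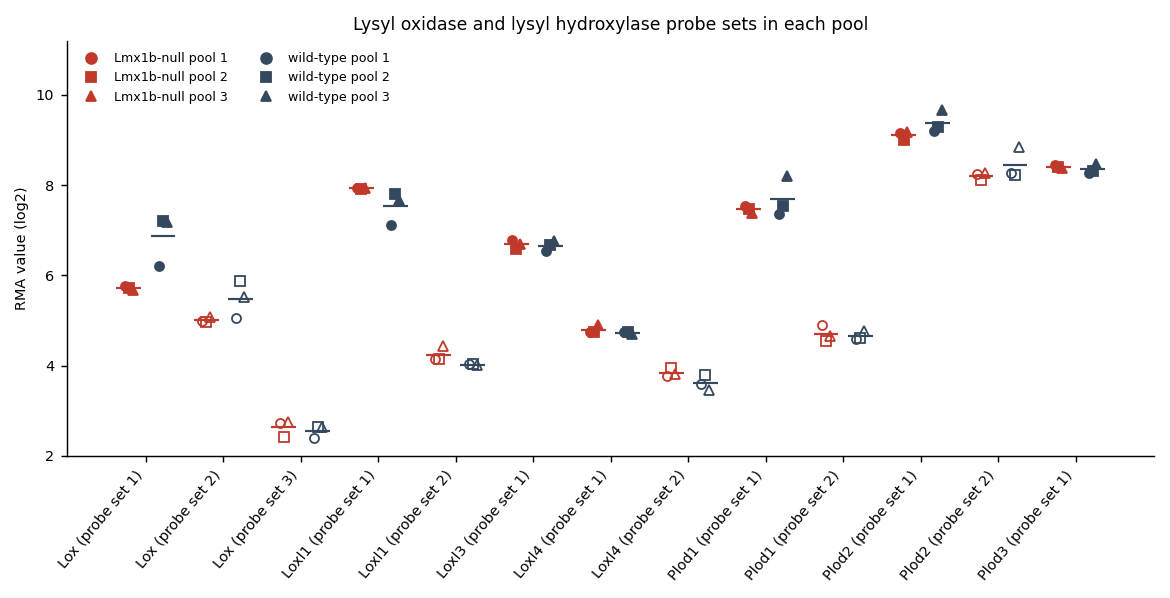
RMA values (log2) of the 13 probe sets in each pool, with Lmx1b-null pools in red left of wild-type pools in dark blue, marker shape for the pool number and bars for group means. Filled markers show the brightest probe set of each gene, numbered 1. The null values of Lox probe set 1 sit between 5.67 and 5.77, below the wild-type values of 6.20 to 7.19, and heights are not comparable between probe sets.

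Lox, the founding member of the family and the oxidase of fibrillar collagen and elastin, had the lowest change of the set. Its brightest probe set read 5.77, 5.72 and 5.67 in null pools 1 to 3, against 6.20, 7.19 and 7.19 in wild-type pools 1 to 3. All 3 null pools lay below all 3 wild-type pools, and wild-type pool 1 lay between the null pools and the other two wild-type pools. The means were 5.72 ± 0.05 in null pools and 6.86 ± 0.57 in wild-type pools (SD, n = 3), a change of -1.15 (SE 0.24, 95% confidence interval -1.70 to -0.59), or 2.21-fold lower. The unadjusted p was 0.00139 and the limma adjusted p 0.206, so the difference did not pass over all probe sets. Only 34 of the 45037 probe sets had a change this low or lower. In bulk tissue, fewer Lox-expressing cells and less Lox RNA per cell cannot be told apart.

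The spread of Lox was uneven between the groups. The 3 null values spanned 0.10, whereas the 3 wild-type values spanned 0.99. Over all probe sets the median SD was 0.0925 in null pools and 0.0937 in wild-type pools, so the arrays of the groups were about equally variable in general. Without wild-type pool 1 the Lox change was -1.48 and passed (limma adjusted p = 0.000934), with the wild-type values that remained both at 7.19. Without wild-type pool 2 it was -0.98 (adjusted p = 0.467), and without wild-type pool 3 it was -0.98 (0.298). With Xist, which was high in all null pools and 1 wild-type pool, as a covariate, it was -1.45 (adjusted p = 0.53).

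The other Lox probe sets read less brightly. The second brightest stood at 4.99, 4.97 and 5.07 in null pools, against 5.05, 5.87 and 5.51 in wild-type pools. Here wild-type pool 1 lay within the range of the null pools, and the change was -0.47 (SE 0.18, interval -0.88 to -0.05; unadjusted p = 0.0312, limma adjusted p = 0.484). The dimmest lay near the bottom of the range, at 2.72, 2.42 and 2.74 in null pools and 2.40, 2.63 and 2.64 in wild-type pools. It ranked between percentiles 4.86 and 11.3 of its array, and its change was 0.07 (SE 0.11). Which part of the transcript each probe set reads was not used here.

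The mean levels of the cartilage and endothelial marker lists were also lower in null pools. Their median changes were -0.09 and -0.18, against 0.02 over all genes. By unadjusted p, 3 of 8 cartilage and 2 of 7 endothelial markers were lower and 0 higher. Over all genes 3.58% were lower and 5.34% higher by that count. Of the 8 cartilage markers, Cnmd (chondromodulin) fell past the adjusted threshold (-1.76, limma adjusted p = 0.0395), though not without wild-type pool 3, and Hapln1 (-0.76) and Sox9 (-0.19) had an unadjusted p under 0.05. The mean log2 level of the 8 was 6.81 to 6.88 in null pools and 6.99 to 7.31 in wild-type pools, with wild-type pool 1 lowest of its group, as for Lox. The median change of the 8 was -0.09, and the other 6 markers beside Cnmd and Hapln1 lay between -0.19 and 0.08. Col2a1, which defines cartilage, was bright throughout with a change of 0.01. The mean of 7 endothelial markers was 6.69 to 6.73 in null pools and 6.83 to 7.03 in wild-type pools, with Tek, the angiopoietin receptor gene, at -0.65 (adjusted p = 0.089) and Kdr at -0.22. Among 6 markers of vascular smooth muscle and pericytes, 3 were above 0 and 3 below, with a median of 0.0032, and 1 was lower by unadjusted p. Rgs5 was at -0.48 near the bottom of the range and the bright Acta2, the smooth muscle actin gene, at 0.32, and the mean was 5.65 to 5.85 in null pools and 5.61 to 5.89 in wild-type pools. Of 5 tendon markers, 4 were above 0 and 1 below, with a median of 0.15, and 1 was lower and 2 higher by unadjusted p. The 1 below was Mkx, at -0.48, and Scx, the tendon transcription factor gene, was at 0.21. The part of these cell types in the Lox values was not tested.

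Loxl1, whose product binds elastin and is needed for elastic fibre upkeep, was higher in null pools. Its brightest probe set read 7.94, 7.91 and 7.93 in null pools, against 7.12, 7.80 and 7.67 in wild-type pools. The null values lay above all wild-type values, within 0.03 of each other, and wild-type pool 1 stood well below the rest. The means were 7.93 ± 0.02 in null pools and 7.53 ± 0.36 in wild-type pools (SD, n = 3), a change of 0.40 (SE 0.16, interval 0.03 to 0.76; limma adjusted p = 0.497). Without wild-type pool 1 the change was 0.19, and it was 0.14 with Xist as a covariate. The dimmer probe set read 4.14 to 4.42 in null pools, against at most 4.03 in wild-type pools, a change of 0.21 (adjusted p = 0.512). Wild-type pool 1 did not stand apart in that probe set.

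Loxl3, a paralogue with scavenger receptor domains, was the flattest oxidase. It read 6.77, 6.58 and 6.70 in null pools, against 6.55, 6.67 and 6.76 in wild-type pools. The ranges overlapped almost wholly, and the change was 0.03 (SE 0.08, interval -0.17 to 0.22; limma adjusted p = 0.947). Loxl4, of the same structural branch, read 4.74, 4.73 and 4.90 in null pools, against 4.74, 4.73 and 4.69 in wild-type pools. Its change was 0.07 (interval -0.09 to 0.23; adjusted p = 0.797), and its dimmer probe set was at 0.22 (interval 0.00 to 0.44; adjusted p = 0.531). These intervals leave out a shift as large as that of the brightest Lox probe set.

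**Figure D2:**
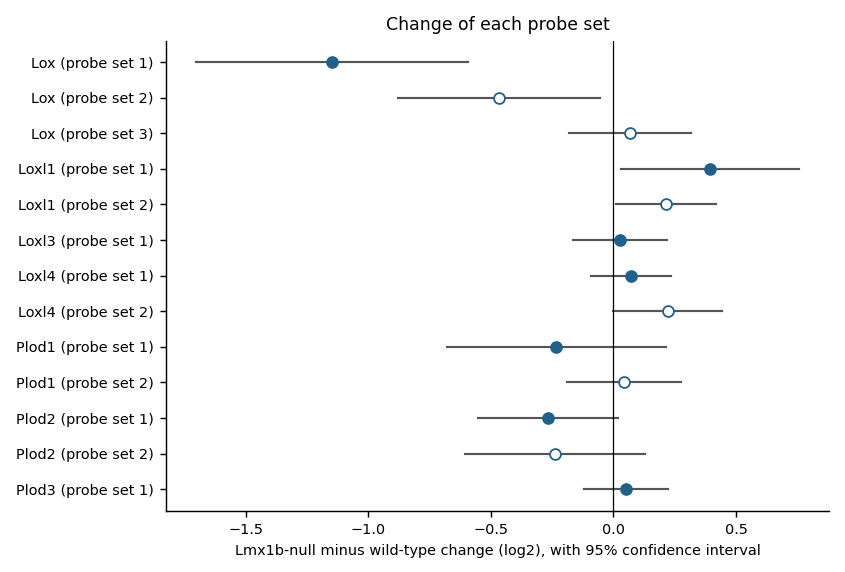
Lmx1b-null minus wild-type change (log2) of each of the 13 probe sets, with the 95% confidence interval of the limma fit; filled points are the brightest probe set of a gene. Lox probe set 1 lies at -1.15 and Loxl1 probe set 1 at 0.40, and the other genes' brightest probe sets lie between -0.27 and 0.07.

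The change of Lox was set against that of each other member within the same pool, by subtracting the other gene's brightest probe set from that of Lox. Only the shift of this difference between groups has a meaning, since levels of different probe sets cannot be compared. Lox minus Loxl1 was -2.17, -2.19 and -2.26 in null pools 1 to 3, against -0.92, -0.61 and -0.48 in wild-type pools 1 to 3. The groups lay far apart, also for wild-type pool 1, in which both genes were low. The difference of changes was -1.54 (SE 0.13; exact permutation p = 0.1, two-sided, adjusted p = 0.1 over 6 comparisons). It was -1.17 against Loxl3 (SE 0.28), -1.22 against Loxl4 (SE 0.35), -1.20 against Plod3 (SE 0.29), -0.91 against Plod1 (SE 0.25) and -0.88 against Plod2 (SE 0.27). The exact permutation p was 0.1 in all 6 comparisons, the smallest that 3 pools against 3 allow. Subtracting the brightest probe set of any gene outside the families left the null pools below the wild-type pools for 96% of 18186 genes, so the separation follows from the Lox values and is not particular to its paralogues. With the mean of all probe sets of a gene in place of the brightest, the differences were smaller, from -0.82 against Loxl1 to -0.26 against Plod2.

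**Figure D3:**
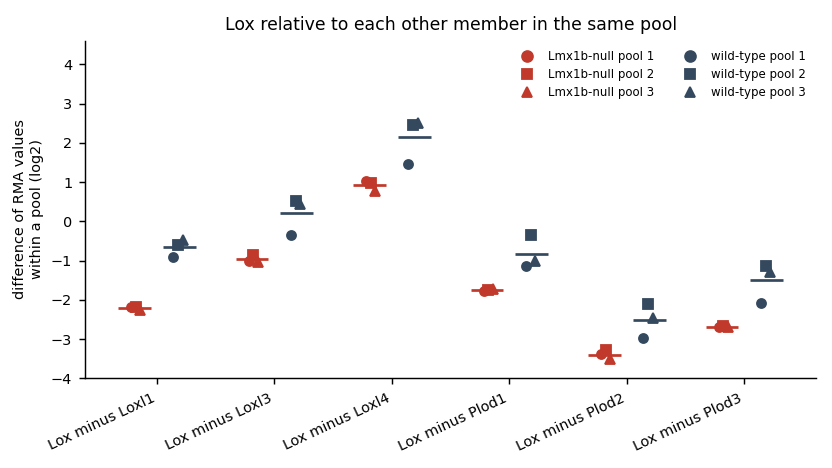
Difference of RMA values (log2) between the brightest Lox probe set and that of each other member in the same pool, with Lmx1b-null pools in red left of wild-type pools in dark blue and bars for group means. Null values lie below wild-type values in each of the 6 comparisons, with a difference of -1.54 for Loxl1 (means -2.21 in null and -0.67 in wild-type pools) and -0.88 for Plod2 (means -3.40 in null and -2.52 in wild-type pools).

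The lysyl hydroxylase genes followed another pattern, in which 1 wild-type pool was high. Plod1, which encodes LH1, the hydroxylase of helical lysines, read 7.54, 7.47 and 7.39 in null pools, against 7.35, 7.54 and 8.20 in wild-type pools. Wild-type pool 3 was high, and the other two wild-type pools lay among or beside the null pools. The change was -0.23 (SE 0.19, interval -0.68 to 0.21; limma adjusted p = 0.746), and without wild-type pool 3 it was 0.02. The dim Plod1 probe set was at 0.04.

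Plod2, which encodes LH2, the hydroxylase of the telopeptide lysines from which the more stable cross-links form, read 9.15, 9.01 and 9.18 in null pools, against 9.19, 9.29 and 9.66 in wild-type pools. The groups did not overlap, but null pool 3 and wild-type pool 1 were all but equal. The change was -0.27 (SE 0.12, interval -0.55 to 0.02; limma adjusted p = 0.552), and -0.13 without wild-type pool 3. Its other probe set read 8.24, 8.11 and 8.27 in null pools, against 8.26, 8.22 and 8.85 in wild-type pools. Its change was -0.24, and -0.03 without wild-type pool 3. Plod3 read 8.45, 8.40 and 8.37 in null pools, against 8.27, 8.32 and 8.47 in wild-type pools, and its change was 0.05 (interval -0.12 to 0.22; adjusted p = 0.871). All 3 genes were highest in wild-type pool 3, Plod3 by very little.

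The same pool was the highest of the 6 for 15 of 15 hypoxia response genes, against 16.4% of all genes. Their mean deviation from each gene's own mean was 0.72 in wild-type pool 3, -0.17 and -0.08 in wild-type pools 1 and 2, and between -0.22 and -0.05 in null pools. Bnip3, a mitophagy receptor gene, read 8.94, 8.51 and 8.73 in null pools, against 8.91, 9.12 and 10.11 in wild-type pools. The median change of the list was -0.33, against 0.02 over all genes, and 0.01 without wild-type pool 3, with 3 of 15 genes lower by unadjusted p, against 3.58% of all genes, and 0 past the adjusted threshold. The 3 were Ldha (-0.39), Pdk1 (-0.50) and Bnip3 (-0.66), while the glucose transporter gene Slc2a1 (-0.31) and Vegfa (-0.33) had an unadjusted p above 0.05. Without wild-type pool 3, 1 of the 15 was lower by unadjusted p, against 4.82% of all genes, which is near that share. Without wild-type pool 1 there were 7, against 3.72%. The part of that list's level in the Plod values was not tested. Leaving out the wild-type pool in which the Plod genes read highest raises their changes in any case.

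Of the 8 genes, 3 had a promoter sequence in the RefSeq table of build GRCm38.p6, namely Plod1, Plod3 and Loxl4. The 250 bases before the start of Plod1 and Plod3 are shown, since one of the genes stood out in wild-type pool 3 and the other hardly did. They are chr4:147936777-147937026 on the minus strand and chr5:136986769-136987018 on the plus strand, written 5′ to 3′ in the direction of the gene. Capitals mark ACGTG, the usual core of the hypoxia-response element, and its variant spelling GCGTG, each searched on both strands.
Plod1: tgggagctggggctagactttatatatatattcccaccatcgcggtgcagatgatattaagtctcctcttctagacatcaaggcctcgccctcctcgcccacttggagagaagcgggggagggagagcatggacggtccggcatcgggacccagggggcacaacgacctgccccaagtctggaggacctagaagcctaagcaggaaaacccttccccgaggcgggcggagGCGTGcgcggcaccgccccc
Plod3: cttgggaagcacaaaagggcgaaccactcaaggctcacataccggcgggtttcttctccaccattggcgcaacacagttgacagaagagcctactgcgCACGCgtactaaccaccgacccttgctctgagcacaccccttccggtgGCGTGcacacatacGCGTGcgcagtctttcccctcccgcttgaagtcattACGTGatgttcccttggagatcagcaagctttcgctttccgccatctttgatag
The Plod1 window held 1 GCGTG, 20 bases before the start, and no ACGTG. The Plod3 window held 1 ACGTG at 54 bases and 3 GCGTG at 152, 104 and 90 bases before the start, and no match overlapped another. In 250 bases before a start, ACGTG was found in 16.6% and GCGTG in 28.2% of 32851 promoters, and the Loxl4 window held 1 GCGTG. A LIM homeodomain core, TAATTA, which reads the same on both strands, was in none of the 3 windows and in 4.84% of all promoters. The matches describe these letters only.

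Each member was also described by the genes that resembled it most over the 6 pools, by Pearson's r among 254 genes outside the families with a mean of at least 6 and an SD of at least 0.3. These correlations rest on 6 arrays and are descriptions without a test. Nearest to Lox were Ghr (growth hormone receptor, r = 0.995), Dcn (decorin, 0.983), the joint growth factor gene Gdf5 (0.972), Lum (lumican, 0.967) and Egflam (0.966). Lum read 7.19, 6.80 and 7.18 in null pools, against 8.04, 8.89 and 8.74 in wild-type pools. Dcn read 5.94, 5.92 and 6.10 in null pools, against 6.29, 7.08 and 6.95 in wild-type pools. In both, as in Lox, wild-type pool 1 was the lowest of its group yet above all null pools, a likeness that choosing genes by correlation brings with it.

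Nearest to Loxl1 were Sostdc1 (r = 0.996), the keratin gene Krt15 (0.984), Emp1 (0.984), Synpo2l (0.983) and Myod1 (0.980), a mixture that includes an epithelial keratin and a muscle regulator. Each of these was lowest in wild-type pool 1, which also comes with a choice by correlation with Loxl1. Myod1 read 7.47, 7.32 and 7.57 in null pools, against 6.47, 7.22 and 7.13 in wild-type pools. The mean log2 level of 7 muscle markers was 6.75 to 7.05 in null pools and 6.33 to 6.93 in wild-type pools, and that of 7 ectoderm markers was 6.91 to 7.06 in null pools and 6.75 to 7.02 in wild-type pools, with wild-type pool 1 lowest in both lists. Their part in the Loxl1 values was not tested. Nearest to Plod1 were Vegfa (r = 0.998), the prolyl hydroxylase gene P4ha2 (0.995), the hexokinase gene Hk2, Ciart and Pfkfb3. Nearest to Plod2 were P4ha1, Cav1, Bnip3, Slc2a1 and the lactate transporter gene Slc16a3.

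**Figure D4:**
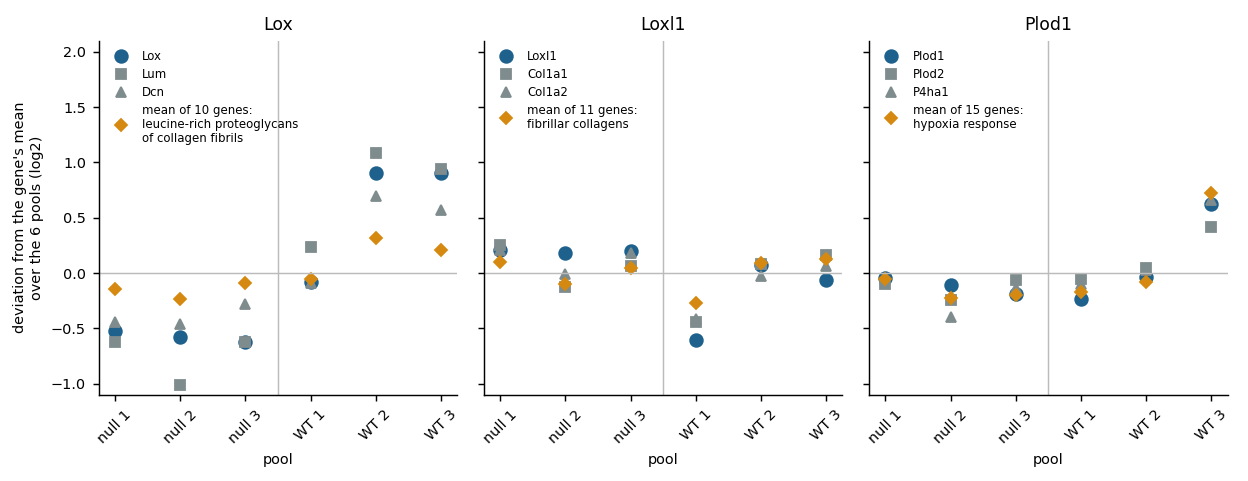
Deviation of each gene from its own mean over the 6 pools (log2), in Lmx1b-null pools 1 to 3 left of the line and wild-type (WT) pools 1 to 3 right of it. Panels show Lox with Lum and Dcn, Loxl1 with Col1a1 and Col1a2, and Plod1 with Plod2 and P4ha1, each beside a list mean (orange diamonds). Lox separates the groups, Loxl1 is low in wild-type pool 1 and Plod1 is high in wild-type pool 3.

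Other enzymes and chaperones of collagen synthesis were read from hand-written lists, with the brightest probe set standing for a gene. Over all 18193 such genes, 0.0934% passed the adjusted threshold, 8.92% had an unadjusted p under 0.05, 3.58% lower and 5.34% higher, and the median change was 0.02. Of 17 genes for prolyl hydroxylation and collagen folding, 16 were measured, 0 passed the adjusted threshold, and 0 were lower and 1 higher by unadjusted p, with a median of -0.02. Without wild-type pool 1, 3 were lower and 0 higher, against 3.72% and 4.07% of all genes. The gene that was higher was P3h2, a prolyl 3-hydroxylase gene, at 0.26, while P4ha3 was at 0.35 (unadjusted p = 0.0707). The prolyl 4-hydroxylase gene P4ha1 read 8.01, 7.67 and 7.92 in null pools, against 7.96, 8.09 and 8.73 in wild-type pools, again with wild-type pool 3 highest (change -0.39, limma adjusted p = 0.565). P4ha2 was at -0.29 and also highest in wild-type pool 3. The dimmer P4ha1 probe set was at -0.54, with groups that did not overlap (limma unadjusted p = 0.0266). A dimmer probe set of Mia3, also on this list, was at -0.76 (limma unadjusted p = 0.0391), while the other Mia3 probe sets lay between -0.17 and 0.13. The shared subunit gene P4hb (-0.09), the collagen chaperone gene Serpinh1 (0.03), Ppib (0.03), Crtap (0.01) and the hydroxylysine galactosyltransferase gene Colgalt1 (-0.06) were close to 0.

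Of 12 genes for procollagen trimming and LOX activation, 10 were measured and 0 passed the adjusted threshold, with a median of 0.05. Adamts3, a procollagen N-proteinase gene, read 5.51, 5.31 and 5.33 in null pools, against 5.83, 5.92 and 6.07 in wild-type pools. The groups did not overlap (change -0.55, unadjusted p = 0.000261, limma adjusted p = 0.11). Fn1, whose product fibronectin binds LOX, was at 0.24 (unadjusted p = 0.0235), and Bmp1, which encodes the proteinase that cuts the LOX proenzyme, was at 0.01 in its brightest probe set. A dimmer Bmp1 probe set was at -0.56 (adjusted p = 0.271), so the Bmp1 probe sets disagreed. Pcolce was at -0.22 and Postn at 0.34. The 5 copper transport genes were all below 0 by their brightest probe sets, with a median of -0.11, against 0.02 over all genes. Of the 5, 1 was lower by unadjusted p, against 3.58% of all genes. Slc31a2 was at -0.17 (limma unadjusted p = 0.0279), Atp7b at -0.26, and Atp7a, the pump that loads copper onto lysyl oxidases, at -0.03. The other Slc31a2 probe set, nearly as bright, was at 0.13 with groups that did not overlap, and the other Atp7a probe set was at -0.28. Dimmer probe sets of Atp7b and Slc31a1 lay above 0, and those of Atox1 on both sides of it.

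The collagen and elastin genes, whose products are the substrates, gave no call by their brightest probe sets. Of 11 fibrillar collagen genes, 0 passed either threshold and the median was 0.07. Col1a1 was at 0.13, Col1a2 at 0.25, Col2a1 at 0.01, Col3a1 at 0.16 and the dim Col24a1 at 0.23. A second Col3a1 probe set, also bright, read 10.13, 9.90 and 10.01 in null pools, against 9.45, 9.66 and 9.67 in wild-type pools. Its groups did not overlap, and its change was 0.42 (unadjusted p = 0.00163, limma adjusted p = 0.212). Of 15 elastin and elastic fibre genes, 13 were measured, 0 passed either threshold and the median was 0.09. Eln read 5.73, 5.74 and 5.64 in null pools, against 5.48, 5.54 and 5.61 in wild-type pools, a change of 0.16 (unadjusted p = 0.0525, limma adjusted p = 0.535). Fbn2 was at -0.04, Fbln5 at 0.11 and Fbln2 at 0.15. Wild-type pool 1 was the lowest of the 6 pools for 9 of 11 fibrillar collagens and 9 of the 13 elastic fibre genes. Without it the median of the fibrillar collagens was -0.16, with 3 genes lower by unadjusted p, against 3.72% of all genes, and 0 past the adjusted threshold. The median of the elastic fibre genes without that pool was 0.07. Without wild-type pool 3 the collagen median was 0.16, and 1 of 11 collagens and 3 of 13 elastic fibre genes were higher by unadjusted p, against 5.62% of all genes.

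Among 10 leucine-rich proteoglycan genes, whose products coat collagen fibrils, Kera (keratocan) fell past the adjusted threshold, with null values from 3.20 to 3.28 and wild-type values from 4.75 to 5.41 (change -1.85, limma adjusted p = 0.00638). Lum (-1.50) and Dcn (-0.79) were lower and Fmod, which encodes the LOX-binding proteoglycan fibromodulin, was higher (0.56) by unadjusted p, and the list's median was -0.04. Without wild-type pool 1, Kera, Lum and Dcn all fell past the adjusted threshold, as Lox did.

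**Figure D5:**
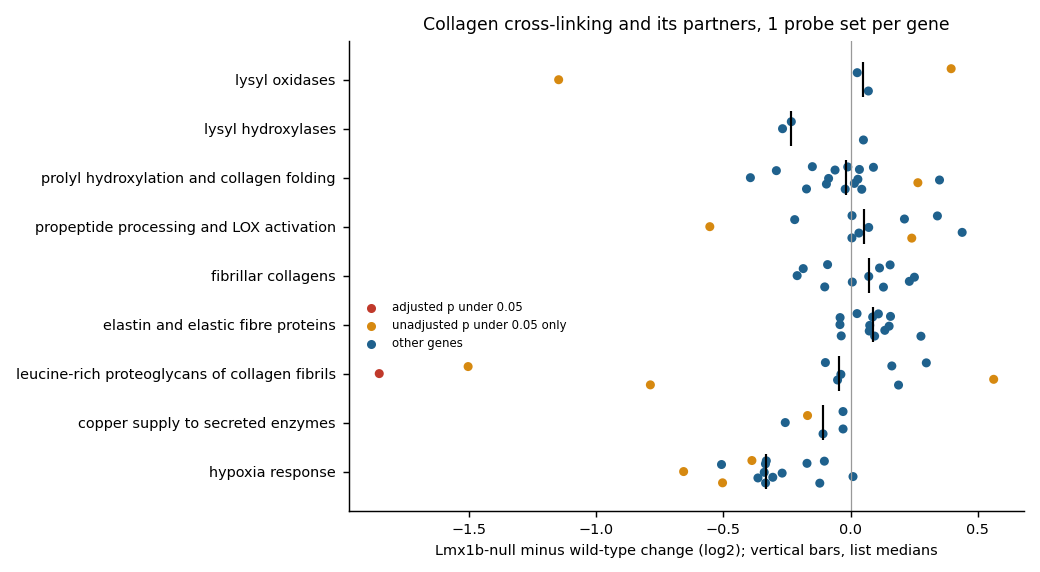
Lmx1b-null minus wild-type change (log2) of each measured gene, 1 probe set per gene, in the enzyme families and 7 lists of related genes; black bars are list medians and colours show which threshold a gene passed. Kera, at -1.85, is the only gene shown past the adjusted threshold, Lox lies at -1.15, and the hypoxia list has a median of -0.33.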

How the data were processed

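Each of the 6 pools was hybridised to 1 array. The authors deposited log2 values made with RMA, per the submitters' processing notes (version not given), 1 per probe set. The log base was taken from their range, since no label states it. RMA compresses changes of dim probe sets and equalises arrays. Of 45101 probe sets, 64 controls were left out; 34945 of the rest had 1 symbol in the supplied platform annotation, which alone were named. Chromosomes came from a RefSeq table (GRCm38.p6).

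All 45037 probe sets were fitted with limma 3.58.1 in R 4.3.3 (lmFit, eBayes without trend), two-sided, with Benjamini-Hochberg adjustment over all of them and a threshold of 0.05. Pools were treated as biological replicates. Lox was compared with 6 members, Loxl2 being left out, by exact permutation. Protein comparison was planned but not run. Scripts were tested on simulated data.

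The members and lists were chosen with earlier results of these data known. Genes were named by role, by adjusted p, or as the 2 smallest p of a list; the 5 genes nearest Lox were named by rule. The nearest genes of other members, markers beyond that rule, the GCGTG search and counts without wild-type pools 1 and 3 were chosen after seeing the data. Deviations from the group means correlated at -0.239, -0.0878 and -0.168 between pools of the same number. These values gave no sign that the numbers pair the pools, but 3 pools a group cannot exclude it.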

Additional observations from a re-analysis of the deposited data

How the results depend on the processing

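The Lox change was -1.48 to -0.98 with 1 pool left out and -1.45 with Xist as a covariate, and negative under all 16 alternatives run. Its groups did not overlap, so leaving out a pool could not turn its sign. Alternatives that altered only the variance model or the probe sets fitted kept the estimate at -1.15. The Lox change passed the threshold only without wild-type pool 1 (-1.48, limma adjusted p = 0.000934), with adjusted p from 0.000934 to 0.53 over the alternatives. With the replicate block it was -1.15 (adjusted p = 0.306); no member passed the adjusted threshold with the block, while 5 had an unadjusted p under 0.05: the brighter Plod2 probe set (0.0401) and the dimmer Loxl4 one (0.0352) were gained and the dimmer Loxl1 one (0.0602) was lost (limma). The count of member probe sets past the threshold was 0, and 0 to 1 with 1 pool left out. By unadjusted p it was 4 of 13, and 2 of the 7 that remain with 1 probe set per gene. It was 2 with Xist as a covariate and 1 to 4 with 1 pool left out. Over all probe sets, 38 were called, against 94 with an intensity trend, 69 with array weights, 14 with the replicate block, 20 among bright probe sets, 19 with 1 probe set per gene, 9 with Xist, 99 at an adjusted p under 0.1, and 13 to 38 with 1 pool left out. Signs turned for Plod1 (-0.41 to 0.020 with 1 pool left out), Loxl3 (-0.030 to 0.079), the dim Plod1 probe set (-0.057 to 0.11) and the dimmest Lox probe set (-0.011 to 0.17, and -0.041 with Xist), none of them past the threshold. The cause was not tested. The 6 differences between Lox and other members kept their sign under each alternative run. The groups did not overlap in these differences, so leaving out a pool could not turn a sign. Centring cancels in a difference within a pool. Median centring and repeated quantile normalization turned no member's sign and brought none past the adjusted threshold. By unadjusted p the dimmer Loxl1 probe set was lost under both (0.0522 and 0.0665), the brighter Plod2 one was gained with centring (0.0457), and the count was 4 with centring and 3 with repeated normalization. With 3 pools a group and a median standard error of 0.0843, small changes of dim probe sets could not be resolved.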
